A study of Mus musculus with 2 samples.

Results

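The 9 genes described here code for proteins of the myelin sheath that oligodendrocytes wind around axons: Mbp, Mobp, Mog, Mag, Cnp, Mal, Cldn11, Opalin and Ermn. They were chosen by symbol, all 9 were found in both gene tables, and they account for 9 of 55536 annotated genes and for 43 annotated transcripts. The data are total RNA-seq, in which ribosomal RNA is depleted before sequencing, from hippocampus of females of the strain B6CASTF1/J, a cross between C57BL/6J and CAST/EiJ, at 14 days of age. The series holds 1 group of 2 libraries without treatment, biological replicates 1 and 2, and the labels list 3 females, numbered differently, for each. The labels name the source as a layer of the hippocampus and do not say which, and they give the same donor identifier for both libraries. No other age, tissue or treatment was analysed, so the comparisons possible are between genes, between transcripts of a gene, between the replicates and between the submitters' quantifications. With 2 libraries the smallest exact two-sided p is 0.5, and no p-value is given. What the labels call biological replicates may differ partly for technical reasons.

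Myelin is a stack of oligodendrocyte membrane from which most cytoplasm has been squeezed out. Myelin basic protein (Mbp) holds the cytoplasmic faces together, and its mRNA is carried into the processes and translated there. The other proteins sit elsewhere in the sheath: Mag faces the axon, Mog the outer surface, claudin 11 (Cldn11) forms the tight junctions between wraps, and Cnp keeps cytoplasmic channels open. The grouping as compact myelin is therefore loose for several of them, and they are called myelin genes below. Opalin and ermin (Ermn) are known as markers of oligodendrocytes that have finished differentiating.

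Of the splice forms the results turn on, those of Mag and Mobp differ at the 3′ end of the coding sequence. Mag has a short form (S-MAG), whose reading frame ends in a 45-base exon at chr7:30900352-30900396, and a long form (L-MAG), which skips that exon and reads on into the next. The sequences are given 5′ to 3′ on the coding strand from the GENCODE M21 transcripts (GRCm38, mm10). Small letters are the 15 coding bases before the forms part, and capitals are the bases joined to them in that form. For Mag it is the junction that sets the long form apart, since its capitals also lie in the last exon of Mag-203, past the stop codon. For Mag, on the minus strand, the shared bases are chr7:30900638-30900652.
Mag-203 (short, capitals chr7:30900364-30900396, through the stop codon): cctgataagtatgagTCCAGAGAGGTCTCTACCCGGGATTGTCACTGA
Mag-207 (long, capitals chr7:30899669-30899698, the first 30 bases of its last coding exon): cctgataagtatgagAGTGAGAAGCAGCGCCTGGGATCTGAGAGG
For Mobp, on the plus strand, the shared bases are chr9:120167996-120168010, and 3 endings follow them.
Mobp-202 (capitals chr9:120173151-120173190, through the stop codon): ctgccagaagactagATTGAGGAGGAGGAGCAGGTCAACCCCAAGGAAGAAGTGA
Mobp-201 (capitals chr9:120168223-120168252, the first 30 bases that follow): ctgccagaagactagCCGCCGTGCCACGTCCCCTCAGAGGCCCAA
Mobp-207 (capitals chr9:120168011-120168014, through the stop codon): ctgccagaagactagGTGA
The short Mag ending adds 33 bases after the split, and the Mobp-207 ending adds 4.

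Levels are in TPM, a share of the library's transcripts that divides reads by transcript length and so allows comparison between genes. The first quantification has the layout of RSEM output and the second that of kallisto output; values are from the first unless the second is named. The 9 genes spanned more than 2 orders of magnitude on this scale. Mbp was far above the others, Mobp, Cnp, Mag and Cldn11 followed, Mog and Mal lay lower, and Ermn and Opalin were lowest. The median over the 9 genes was 82.8 TPM (82.1 in replicate 1 and 83.5 in replicate 2), against 14.9 for the 12885 detected nuclear protein-coding genes. Detected means that neither library was below 1 TPM, and all 9 were detected. Together they took 0.332% and 0.346% of the TPM of nuclear protein-coding genes in replicates 1 and 2. In bulk tissue, fewer cells of a type and less RNA per cell cannot be told apart.

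**Figure D1:**
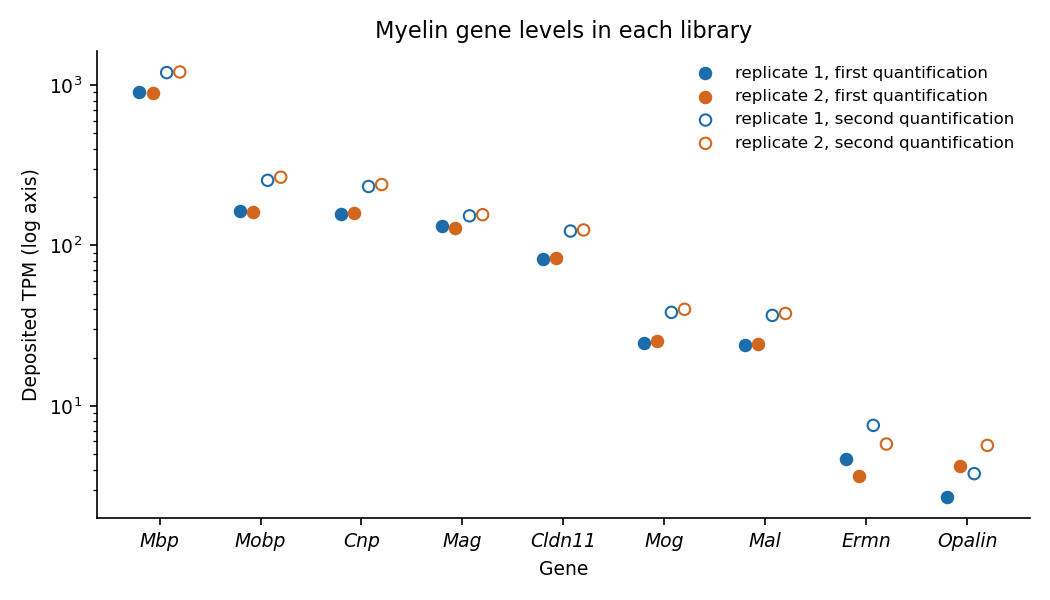
Deposited TPM of the 9 myelin genes on a log axis, ordered by mean level; filled points are the first quantification, open points the second, blue replicate 1 and orange replicate 2. Mbp stands alone near 897 TPM in the first quantification, and only Ermn and Opalin show points that cross between libraries.

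Mbp, on chromosome 18 (82475146 to 82585637, plus strand), was at 901 TPM in replicate 1 and 892 in replicate 2, a mean of 897 ± 6.05 (SD, n = 2, as for all means below). Those levels rest on 35723 and 35272 expected counts, the estimated reads that the quantification assigns to a gene. Mbp ranked 14 among the 12885 detected nuclear protein-coding genes and held 60.4% and 60.2% of the summed TPM of the 9 genes. The ratio of Mbp to Mobp was 5.50 ± 0.0575 in TPM, 4.61 ± 0.119 in the second quantification's TPM and 4.86 ± 0.0434 in expected counts, which are not divided by length.

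Among the genes of the next tier, Mobp (chromosome 9, 120149707 to 120181484, plus strand) codes for a small basic protein that, like Mbp, lies between the cytoplasmic membrane faces. Its levels were 165 and 161 TPM, from 7396 and 7211 counts. Cnp (chromosome 11, 100574904 to 100591729, plus strand), the cyclic nucleotide phosphodiesterase of the non-compact sheath, was at 156 and 159 TPM, from 8796 and 8897 counts. The ranges of Mobp and Cnp did not meet, but their means were 1.04-fold apart, Cnp had more counts, and both levels include transcripts that have no annotated coding sequence or are annotated as targets of decay. Cnp overlaps Dnajc7, a gene of the opposite strand at 98.4 ± 6.13 TPM, and 3.52% of the 31-base words of Cnp also occur in that gene; the use of strand in counting is not stated in these sources.

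Mag (chromosome 7, 30899176 to 30914873, minus strand), the sialic-acid-binding adhesion protein of the innermost wrap, was at 133 and 129 TPM, from 5297 and 5235 counts. Cldn11 (chromosome 3, 31149920 to 31164324, plus strand) was at 82.1 and 83.5 TPM, from 3325 and 3360 counts. Each was below the gene before it in the order and above the gene after it in both libraries and in both quantifications. The gap from Cldn11 down to Mog was 3.30-fold.

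Mog (chromosome 17, 37010743 to 37023398, minus strand), the immunoglobulin-family protein of the outer surface, was at 24.7 and 25.5 TPM, from 906 and 929 counts. Mal (chromosome 2, 127633226 to 127656695, minus strand), a membrane protein that sorts cargo to the sheath, was at 24.0 and 24.5 TPM, from 1473 and 1491 counts. The lowest Mog value lay above the highest Mal value by little, and the means were 1.03-fold apart. Mag exceeded Mog 5.21 ± 0.231 times and Cldn11 exceeded Mal 3.41 ± 0.00412 times in TPM. The second quantification gave a Mag to Mog ratio of 3.94 ± 0.0765 and a Cldn11 to Mal ratio of 3.34 ± 0.0298.

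Ermn and Opalin were the lowest of the 9. Mog, which the list of mature oligodendrocyte genes below also held, was higher, at a mean of 25.1 TPM. Ermn (chromosome 2, 58045113 to 58052864, minus strand), an actin-binding protein, was at 4.65 and 3.66 TPM, from 376 and 294 counts. Opalin (chromosome 19, 41061710 to 41077113, minus strand), a membrane protein, was at 2.72 and 4.24 TPM, from 121 and 184 counts. They changed places between libraries: Ermn to Opalin was 1.71 in replicate 1 and 0.863 in replicate 2. In the second quantification Ermn was the higher in both libraries, at 2.00 and 1.02 times Opalin. Of the 31-base words of Ermn, 7.06% occur in other genes, and the gene that overlaps it on the other strand, Galnt5, was at 0.0600 ± 0.0283 TPM. Ermn and Opalin ranked 10661 and 11031 among the 12885 detected genes.

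Deposited TPM from the second quantification was higher for all 9 genes; TPM is a share of each table's own total. Scaled to nuclear protein-coding genes in each table, the second value was between 0.717 (Mag) and 0.974 (Ermn) times the first, against a median of 0.946 over coding genes. None of the 9 differed over 1.5-fold between quantifications in the same direction in each library, where 3.95% of 13062 coding genes did. The order of the 9 genes was the same in both quantifications.

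Replicate 2 was compared with replicate 1 on expected counts scaled by TMM, a scaling that assumes most genes do not differ, for genes that reached 50 summed counts and an average of 1 TPM. Of the 9 genes, 1 (Opalin) was over 1.2-fold apart, where 21.1% of all 14717 genes tested were. Opalin was 1.63-fold higher in replicate 2, with an exact binomial 95% interval of 1.29 to 2.07 that covers counting error only; over all genes tested, 4.27% were over 1.5-fold apart. Ermn went the other way, 1.19-fold higher in replicate 1 (1.02 to 1.39). Among the 4593 genes of 200 to 1000 summed counts, the range that holds Ermn and Opalin, 29.4% were over 1.2-fold apart and 5.53% over 1.5-fold. The other 7 genes, with more than 1000 summed counts each, were 1.05- to 1.10-fold higher in replicate 2 on this scale, although Mbp, Mobp and Mag were lower there in deposited TPM. In that count range 9.43% of 8233 genes were over 1.2-fold apart.

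The log2 ratios of those 7 genes lay between 0.06 (Mobp) and 0.14 (Mog). The median over all 9 was 0.12, against -0.00030 over all genes tested, whose central 95% ran from -0.62 to 0.48. All 9 counting intervals exclude equality, which counting error alone sets, and the spread between replicates is larger than that: the common biological coefficient of variation over 17910 genes was 0.104. On deposited TPM with a pseudocount of 1, where the median of all genes was -0.08, the other 7 lay between -0.05 and 0.04. Relative to the median of all genes, the median of the 9 was 0.12 on the TMM scale and 0.11 on this one.

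**Figure D2:**
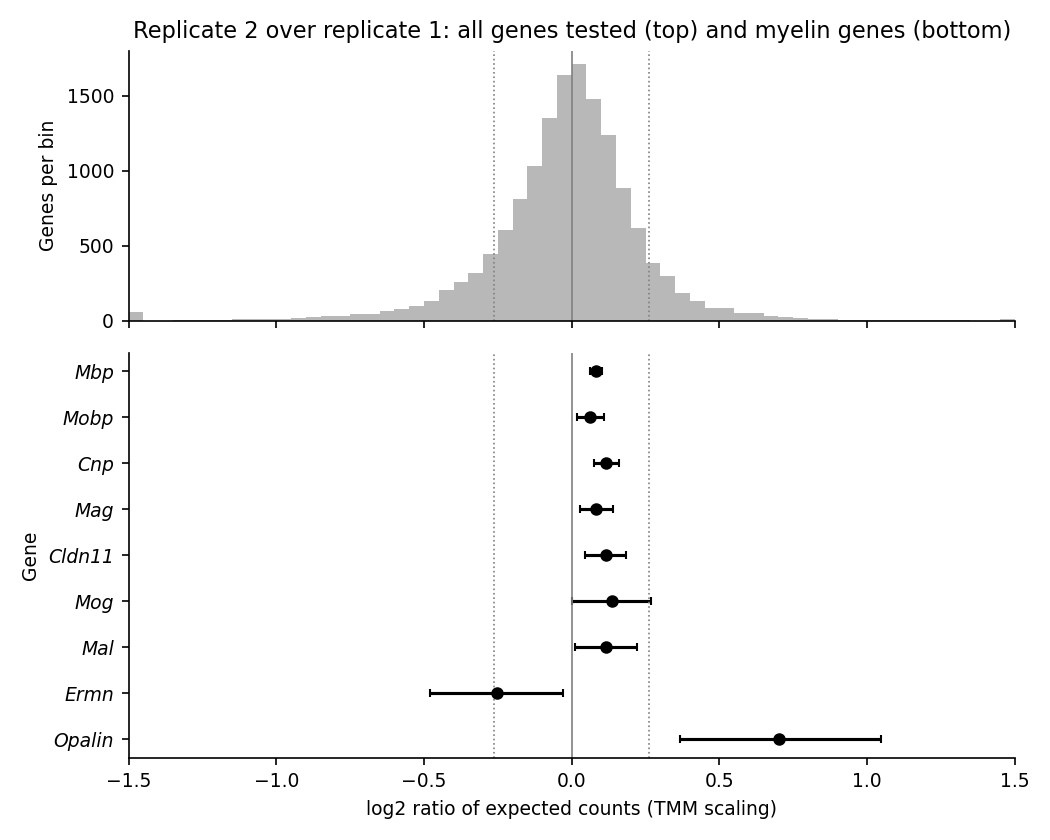
Top, number of genes per bin of log2 ratio of replicate 2 over replicate 1 for all 14717 genes tested, with genes beyond the axis gathered in the end bins; bottom, the same ratio for the 9 myelin genes with exact binomial 95% intervals. The solid line marks equality and the dotted lines a 1.2-fold difference. Of the 9, 8 lie above 0, where the median of all genes tested was -0.00030. On deposited TPM with a pseudocount of 1 it was 5 of 9, where that median was -0.08. Opalin alone lies past the dotted lines, and Ermn lies just inside.

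The libraries also differed in markers of other cells. All 8 choroid plexus markers were over 1.2-fold lower in replicate 2, where their summed TPM was 9.86 against 1437 in replicate 1, with transthyretin (Ttr), the main choroid plexus message, at 1375 and 5.62. Of 9 meningeal fibroblast markers, 7 were lower in replicate 2 and 1, Pdgfrb, was higher (summed TPM 362 and 273). By comparison, 4 of 9 astrocyte markers were higher (1942 and 2256) and 3 of 8 microglia markers were higher (177 and 198). Over all genes tested, 8.79% were over 1.2-fold higher in replicate 2 and 12.3% lower. The part of these cell types in the ratios of the 9 genes was not tested. Of 9 neuron markers, none was over 1.2-fold apart (summed TPM 3336 and 3154).

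The named markers place these lists. List medians here and below are medians of the genes' mean TPM. Their ± is the SD of the medians of the 2 libraries, which need not lie around the value given. Neurons led with the vesicular glutamate transporter Slc17a7 (691 ± 27.3 TPM), Snap25 (627 ± 44.5) and Stmn2 (454 ± 40.3), and Rbfox3 was the lowest (104 ± 3.51). Astrocyte markers were led by the glutamate transporter Slc1a2 (1079 ± 143), Aldoc (323 ± 49.1) and Slc1a3 (214.6 ± 33.6), with Aldh1l1 lowest (19.7 ± 0.219). The microglial markers Csf1r (35.3 ± 2.47) and P2ry12 (33.4 ± 5.15) lay in the range of Mog and Mal or above it, and Aif1 was near Ermn (4.06 ± 0.325). Endothelial markers, led by Cldn5 (32.4 ± 0.771), Ly6c1 (23.9 ± 0.799) and Slco1a4 (16.6 ± 0.163), had a median of 14.99 ± 0.120, with Tek lowest (4.76 ± 0.177). After Ttr, the choroid plexus list held Sostdc1 (14.7 and 1.99 in replicates 1 and 2) and Folr1 (15.5 and 0.260), down to Otx2 (4.44 and 0.130). The meningeal list was led by Ptgds (168 ± 20.7), which oligodendrocytes also express, Igf2 (79.3 ± 27.4) and Col1a1 (21.2 ± 6.55), with Slc22a6 lowest (1.19 ± 0.375).

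Mbp has 16 annotated transcripts that fall into 3 groups by first exon. The Golli group (Mbp-201, Mbp-205, Mbp-208 and Mbp-213) starts at the 5′ end of the gene; Golli proteins are known from neurons, oligodendrocyte precursors and T cells as well as from myelinating cells. The 11 classic transcripts, which code for the proteins of the sheath, start about 79.4 kb downstream, and Mbp-214 starts inside the classic unit. By the first quantification, classic transcripts held 97.6% ± 0.444 of Mbp TPM. Golli transcripts held 2.31% in replicate 1 and 1.85% in replicate 2.

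**Figure D3:**
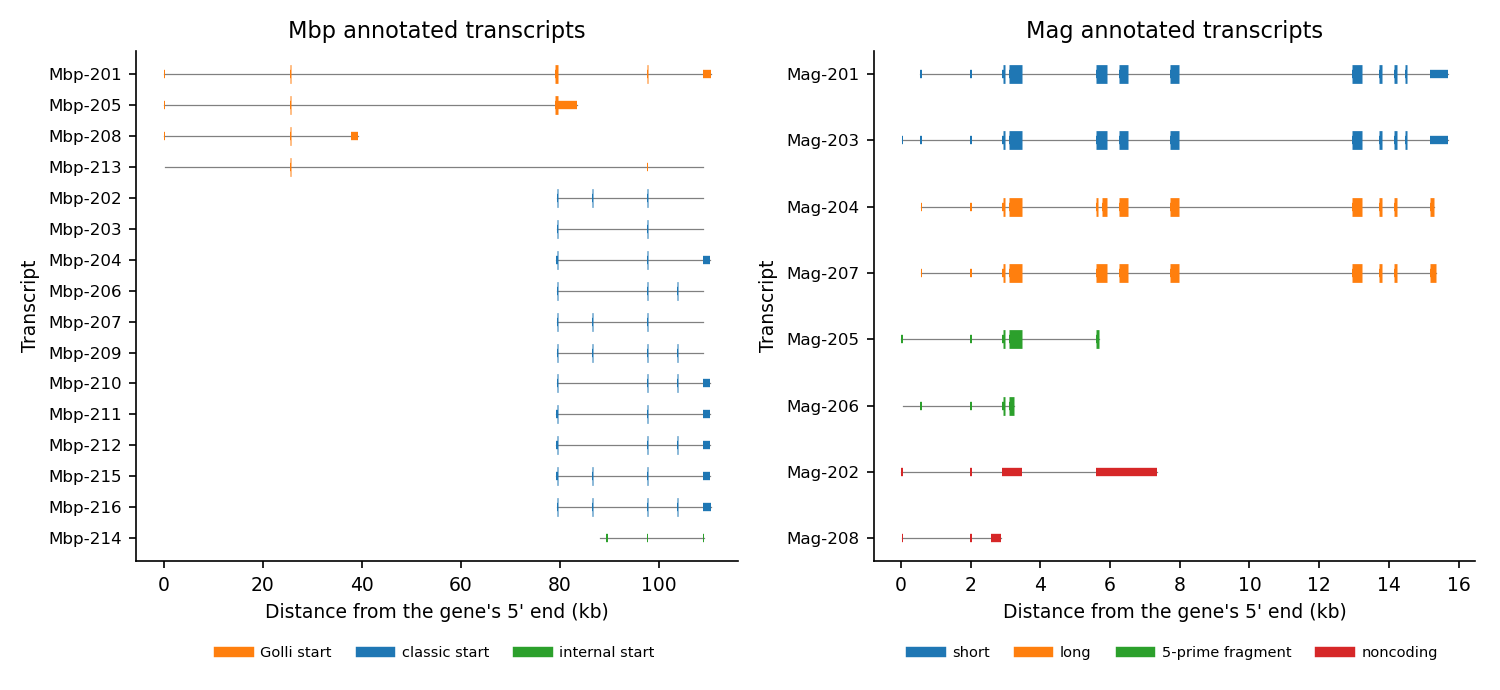
Annotated transcripts of Mbp (left) and Mag (right) against distance from the 5′ end of the gene in kb; thick boxes are coding, thinner boxes untranslated or noncoding exon, and colours mark the groups used in the text. Golli transcripts of Mbp begin about 79.4 kb before the classic ones, and Mbp-201 ends on the same last exon as the classic transcripts.

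The second quantification gave the Golli group a much larger share, 31.02% in replicate 1 and 28.49% in replicate 2. Nearly all of that difference lay in Mbp-201, a transcript that joins Golli exons to exons of the classic unit. Mbp-201 was at 344 and 321 TPM in the second quantification, from 13180 and 12137 estimated counts. The first quantification gave it 2.23 and 2.07 TPM, with deposited credibility bounds of 0.339 to 3.45 and 0.109 to 3.29. Of its 2492 bases, 547 (22.0%) lie outside the exons of the classic and internal transcripts, and it has no 31-base word that is absent from every other transcript. Without Mbp-201 and Mbp-213, a choice made after the values were seen, the Golli share was 1.84% in the first quantification and 2.06% in the second. How reads were shared between Mbp-201 and the classic transcripts was not tested, and a Golli share of Mbp is given here only with the quantification it comes from.

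The Golli transcripts with much sequence of their own differed less between quantifications. Mbp-208, which codes for 55 residues and has none of its 1685 bases in classic exons, was at 0.51 and 0.46 TPM, and at 0.918 and 0.637 in the second quantification. Its counts were 18.3 and 16.5, and 22 and 15 in the second. Of the bases of Mbp-208, 1362 are its own and lie within an intron of other Mbp transcripts. Mbp-205 (195 residues) was at 18.1 and 14.0 TPM, and at 26.3 and 21.5 in the second. Mbp-205 was lower in replicate 2 in both tables. Of its 4797 bases, 3953 are its own and lie within an intron of other Mbp transcripts. For Mbp-205 and Mbp-208, the spliced transcript and unspliced RNA over such an intron therefore cannot be told apart in these tables. Mbp-213 was at 0 in both libraries and both quantifications. Of 8 T cell markers only Lck was detected, at 1.85 ± 0.0636 TPM, followed by Trac (0.885 ± 0.191) and Cd4 (0.240 ± 0.0141) and down to Cd8a (0.00500 ± 0.00707). By comparison, the 9 neuron markers had a median of 366 TPM; the cells that hold the Golli RNA were not tested.

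Classic Mbp forms differ by exon 2 (78 bases, chromosome 18, 82561778 to 82561855), exon 5 (33 bases, 82575601 to 82575633) and exon 6 (123 bases, 82578936 to 82579058). The forms with exon 2 are known to be made early in myelination. In the first quantification, Mbp-211, which lacks exons 2 and 6 and codes for the 14.2 kDa protein of 128 residues, held 60.9% ± 0.583 of Mbp TPM. Mbp-212, the 18.5 kDa form without exon 2, held 14.8% ± 1.13. Mbp-209, the 21.5 kDa form with every one of these exons, held 12.1% ± 1.67, and Mbp-216, the 20.3 kDa form without exon 5, held 8.80% ± 0.299. Mbp-209 is annotated at 638 bases and had 1474 and 1193 counts. Mbp-211, annotated at 1922 bases, had 22720 and 22676. No classic transcript has a 31-base word that is absent from every other Mbp transcript.

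The second quantification divided the same RNA differently. Mbp-211 held 17.9% ± 2.70 there, Mbp-212 21.4% ± 0.604, Mbp-209 2.87% ± 0.447 and Mbp-216 3.93% ± 0.0321. Mbp-215, the 17.2 kDa form with exon 2 and without exon 6, held 23.2% ± 0.855, where the first quantification listed it at 0 in both libraries with upper bounds of 6.03 and 5.57 TPM. The difference between quantifications was larger than the spread between replicates for each of these 5 forms.

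The classic transcripts were also summed by exon. Exon 6 was coded in 36.6% ± 1.01 of classic TPM in the first quantification and 40.2% ± 0.751 in the second. Exon 5 was coded in 90.1% ± 0.436 and 94.4% ± 0.0968. Exon 2 was coded in 22.1% ± 1.13 and 42.8% ± 2.90, and in 14.7% by expected counts of the first quantification. The share of the early-type forms was therefore not settled by these tables. In both tables, forms without exon 2 held more than forms with it, and forms without exon 6 held more than forms with it.

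Mag has 8 annotated transcripts: 2 that code for the short form of 582 residues (Mag-203 and Mag-201), 2 for the long form (Mag-207, of 627 residues, and the incomplete Mag-204), 2 incomplete 5′ fragments, and 2 noncoding. The long cytoplasmic tail is known from the first phase of myelination in rodents and the short tail from later ages. Mag-203 was at 64.0 and 63.0 TPM and Mag-207 at 32.1 and 33.4. Mag-201 and Mag-204 were listed at 0 in the first quantification, and no more than 0.000832 TPM in the second. The short form exceeded the long form in both libraries and both quantifications.

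The long form took 34.0% ± 0.880 of the TPM of long and short forms together, and 38.8% ± 1.195 in the second quantification. Over all coding Mag transcripts it took 25.6% ± 1.15 and 38.8%; the larger gap comes with the 5′ fragments Mag-205 and Mag-206, which held 24.4% ± 1.28 of Mag TPM in the first quantification and 0.0695% ± 0.0982 in the second. The fragments hold no base of the exons where the forms part. The forms are not equally easy to count: 427 bases (17.5%) of Mag-203 lie outside the long-form exons, 355 of them past the annotated end of Mag-207, and no base of Mag-207 lies outside the short-form exons. The sequences above show the splice that tells them apart, and reads across it were not counted here.

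**Figure D4:**
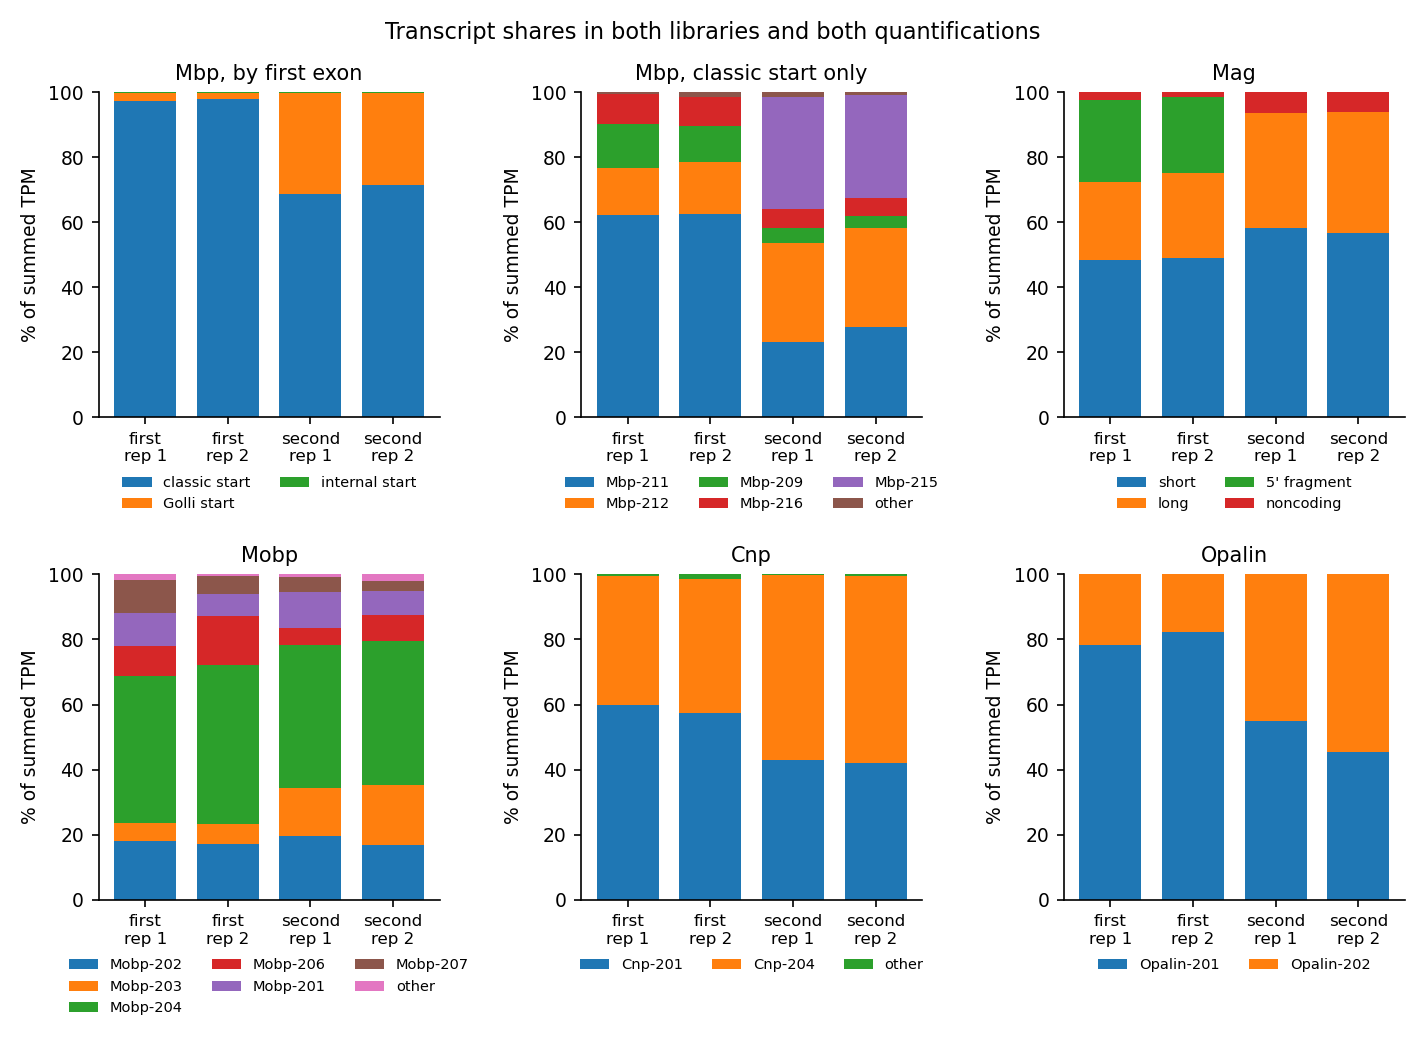
Percent of a gene's summed transcript TPM by transcript or group, for replicates 1 and 2 (rep 1, rep 2) in the first and second quantification; the second panel of the top row is within classic Mbp transcripts only. Bars of the replicates mostly resemble each other within a quantification, with exceptions in the Opalin and Mobp panels. Opalin-201 was 55.0% and 45.4% in replicates 1 and 2 of the second. Mobp-206 was 9.17% and 14.9%, and Mobp-207 10.2% and 5.46%, in the first. The Golli share of Mbp, the classic forms, the Mag fragments, Cnp-204 and Opalin-202 differ between quantifications.

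Mobp has 7 annotated transcripts, and those that code carry 3 different coding sequences, whose endings are printed above. A retained-intron transcript has no coding sequence and held 1.01% ± 0.819 of Mobp TPM, and 1.47% ± 0.931 in the second quantification. Transcripts with the 81-residue reading frame of Mobp-202 (Mobp-202, Mobp-203, Mobp-204 and Mobp-206) held 78.0% and 87.1% of Mobp TPM, and 83.4% and 87.5% in the second quantification. The 170-residue frame of Mobp-201 held 10.3% and 7.04%, and 11.3% and 7.42%. The 69-residue frame of Mobp-207 held 10.2% and 5.46%, and 4.53% and 2.98%. Both rarer frames were lower in replicate 2 in both quantifications. Mobp-201 has 1166 bases in exons of no other Mobp transcript, and 1156 of them lie within introns of others. For Mobp-207 and Mobp-202 all such bases do (128 and 2716). By those bases, these transcripts and unspliced RNA over the introns cannot be told apart in these tables. The most abundant transcript, Mobp-204, carries the 81-residue frame but is annotated as a target of nonsense-mediated decay, with further exons after its stop codon; it was at 74.7 and 78.8 TPM, 47.1% ± 2.59 of the gene and 43.9% ± 0.161 in the second quantification.

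Cnp RNA was divided between Cnp-201, the only annotated coding transcript (420 residues), and Cnp-204, a processed transcript without annotated coding sequence that begins 0.62 kb downstream. Cnp-201 was at 93.2 and 91.2 TPM and Cnp-204 at 61.9 and 65.4. Cnp-204 held 40.4% ± 1.08 in the first quantification and 57.2% ± 0.556 in the second, so which transcript led differed between the tables. Cnp-204 has 367 bases of its own, all within an intron of other Cnp transcripts. Cnp-201 has 165 of its own and none of them in an intron. Cnp-204 and unspliced RNA over that intron therefore cannot be told apart by those bases in these tables.

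The remaining genes gave simpler pictures, apart from Opalin. Opalin-201, the coding transcript (143 residues), was at 2.13 and 3.49 TPM, and Opalin-202, a retained-intron transcript, at 0.59 and 0.75. Opalin-202 held 19.7% ± 2.83 of Opalin TPM and 49.8% ± 6.77 in the second quantification. In the first quantification the coding transcript was higher in replicate 2, from 84.9 and 138 counts. In the second it had 55.6 and 67.7 counts, and the retained-intron transcript 74.4 and 133, so the transcript that carried most of the difference between libraries was not the same. Mal RNA was all assigned to Mal-202 (153 residues). Mog RNA was assigned to Mog-201 (247 residues), with 2.44% ± 1.07 in Mog-202 in the second quantification. Cldn11 and Ermn have 1 annotated transcript each. By label, 33 of the 43 transcripts are protein-coding, 5 processed, 3 retained introns and 2 targets of nonsense-mediated decay.

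The genes around these 9 were followed in lists by role. Of 23 other myelin sheath genes 22 were detected, with a median of 39.5 ± 0.354 TPM. The medians within replicates 1 and 2 were 41.1 and 41.6 TPM, both above that value. None of the 22 tested was over 1.2-fold apart between libraries. Among the highest were Gpm6b (381 ± 5.95 TPM), which neurons and astrocytes also express, and the tetraspanin Cd81 (211.8 ± 9.43). The lowest was the adhesion protein Ninj2, at 0.330 ± 0.0424. Of 13 genes of the node, paranode and glial junctions 12 were detected, with a median of 22.6 ± 1.93 TPM and none of 12 apart. The axonal adhesion protein Cntn1 (174 ± 5.34), neurofascin (Nfasc, 116 ± 5.50) and Cadm4 (97.9 ± 3.25), the glial adhesion protein that meets the axon along the internode, were the highest. Hapln2, a link protein of the mature node, was the lowest at 0.810 ± 0.0424.

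All 15 genes of myelin lipid synthesis were detected, with a median of 30.5 ± 0.516 TPM. The desaturase Scd2 (319 ± 13.8), the cholesterol enzyme Hmgcs1 (202.8 ± 22.0) and Scd1 (78.2 ± 15.9) were the highest. The acetylaspartate-cleaving enzyme Aspa was the lowest, at 1.65 and 2.20 TPM. Of the 15, 1 was over 1.2-fold apart: Scd1, at 66.9 TPM in replicate 1 and 89.4 in replicate 2.

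Of 17 transcription factors of the lineage all were detected, with a median of 18.8 ± 0.870 TPM. Zeb2 (156 ± 15.1), Olig1 (84.9 ± 2.69) and Lmo4 (80.2 ± 2.44) were the highest, and Nkx6-2 the lowest at 2.12 ± 0.0212; Zeb2 and Lmo4 are expressed in neurons too. Over 1.2-fold apart were 4, with Id2 higher in replicate 2 and St18, Tcf7l2 and Nkx2-2 lower. All 16 genes of a list drawn up for myelin RNA transport and splicing were detected, at a median of 88.3 ± 2.21 TPM. The highest were Hnrnpk (300.1 ± 14.9), Hnrnpa2b1 (220.4 ± 22.0), which binds the Mbp transport signal, and the splicing regulator Qk (217 ± 2.72). The lowest on the list, Sncaip, at 8.09 and 5.83 TPM, was the only one apart. Sncaip is not itself a gene of RNA transport or splicing, so its values do not describe that role.

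Markers of the stages of the lineage gave the setting of the 9 genes. Markers of precursors were all detected (10 of 10), at a median of 14.4 ± 0.216 TPM, led by Gpr17, which also marks committed cells, at 57.4 and 39.5 TPM, and by Pdgfra, the growth factor receptor that defines precursors, at 34.5 and 42.0. C1ql1 followed at 16.5 ± 0.0919, and Sapcd2 was the lowest at 4.63 ± 0.778. Gpr17 and Pdgfra were the ones over 1.2-fold apart, with Gpr17 lower and Pdgfra higher in replicate 2. Of 10 committed-oligodendrocyte markers, which also include Gpr17, all were detected at a median of 13.0 ± 0.385 TPM, and 3 were lower in replicate 2 (Gpr17, Tcf7l2 and Bmp4). Tnr (71.0 ± 2.64) and Bcas1 (53.8 ± 1.68) led that list, and Bmp4 (4.97 ± 0.502) closed it. Of 17 other genes of mature oligodendrocytes 14 were detected, at a median of 4.57 ± 0.212 TPM (6.79 ± 0.467 with Mog, which the list also held and which was left out after the values were seen), led by Qdpr (44.0 ± 2.21), carbonic anhydrase 2 (Car2, 38.1 ± 2.03) and transferrin (Trf, 25.8 ± 1.96). The protease Klk6 was the lowest, at 0.12 and 0.04 TPM. Of the 14 tested, 3 were over 1.2-fold apart, with Tmem125 1.29-fold higher in replicate 2 and Ndrg1 and Cdc42ep2 1.25- and 1.21-fold lower there. The median log2 ratio of those 14 was -0.10, against 0.12 for the 9 genes and -0.00030 for all genes tested.

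**Figure D5:**
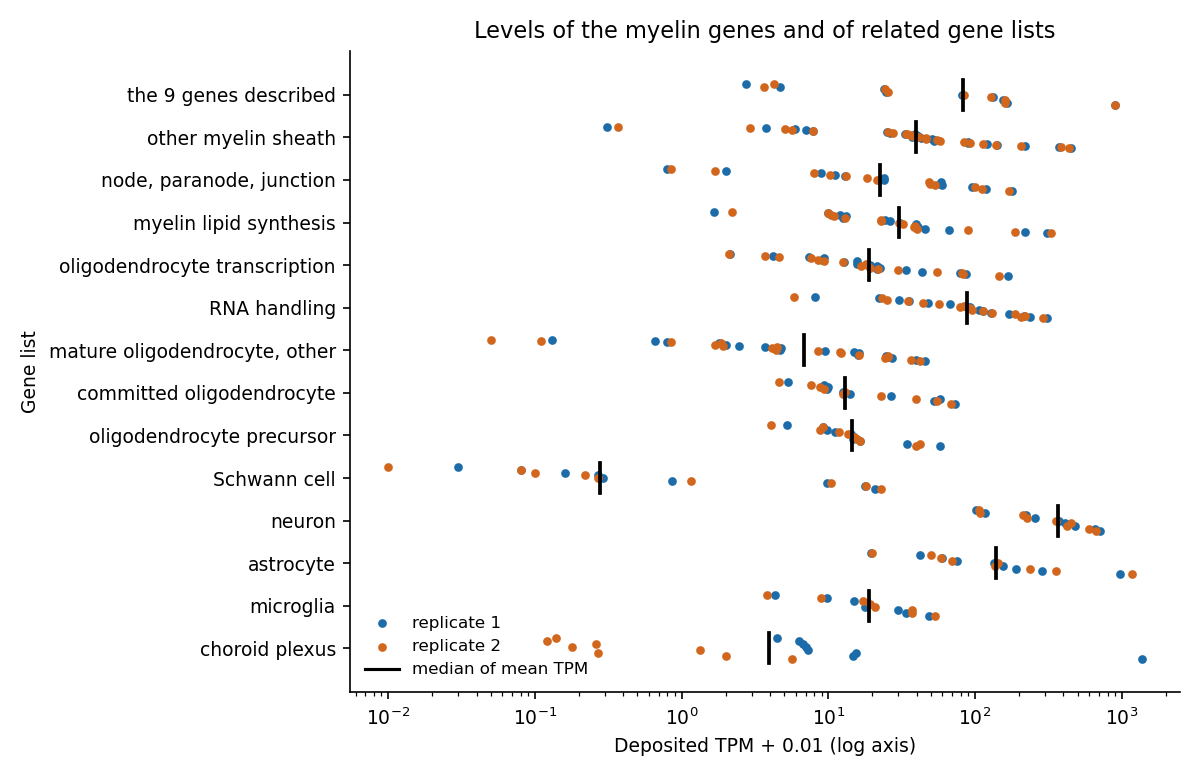
Deposited TPM plus 0.01 on a log axis for each gene of the 9 described and of related lists, blue replicate 1 and orange replicate 2; black bars are the medians of mean TPM, with Mog also counted in the mature oligodendrocyte list. The 9 genes range from Opalin at 3.48 to Mbp at 897 TPM on average, and the choroid plexus list is the one whose libraries separate.

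Myelin of peripheral nerve is made by Schwann cells, and 6 of 9 of their markers were not detected. The 3 detected, Sox2 (21.8 ± 1.36), Drp2 (17.9 ± 0.247) and Pmp22 (10.1 ± 0.375), are also expressed by cells of the brain. The Schwann cell list had a median of 0.270 ± 0.0141 TPM.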

How the data were processed

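Both libraries were quantified by the authors against mm10 and GENCODE M21, per the submitters' notes deposited with the files. The first quantification was deposited as tables by gene and by transcript with expected counts (estimated counts, not always whole), TPM, FPKM and the percent of a gene's TPM in each transcript, per the file headers. The second is a deposited transcript table of estimated counts and TPM, summed here by gene. No source used here gives the tool versions, the credibility level or the use of strand. Depth was 33465393 and 32879872 expected counts for replicates 1 and 2; 0.430% and 0.423% lay outside annotated genes (spike-ins and unnamed entries) and were left out.

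Symbols came from the transcript tables, joined by gene identifier. The 9 genes were set by symbol at the outset, and the lists were chosen with a description of earlier results of these data known. The text names all 9, transcripts with at least 5% of their gene's TPM, every Golli and coding Mag transcript, and of each other list the 3 highest and the lowest gene, except items that are not reported here. Genes past 1.2-fold in a list were named after their values were seen.

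Expected counts were rounded and scaled with TMM in edgeR 4.0.16 (R 4.3.3) on genes that had 10 counts or more per library; ratios used a prior count of 0.5 and exact (Clopper-Pearson) binomial intervals. The ratio step was tested on simulated counts. Mbp transcripts were grouped by start sites over 5 kb apart. Reads are not independent molecules, so intervals cover counting error only. A floor of 3 counts was 0.0757 TPM for Mbp and 0.0674 for Opalin in replicate 1. Masses were calculated from annotated coding sequences. Alternatives used DESeq2 1.42.0, spike-in scaling, TPM, FPKM, the second quantification and single libraries. Scripts ran in Python 3.11.15 (numpy 2.4.6, pandas 2.3.3, scipy 1.17.1, matplotlib 3.10.9).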

Additional observations from a re-analysis of the deposited data

How the results depend on the processing

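The median level of the 9 genes was 82.8 TPM. It was 124 TPM in the second quantification, 189 when TPM was rescaled over nuclear protein-coding genes and 56.9 in FPKM, which are other scales, and 82.1 to 83.5 with either library left out. The median log2 ratio of replicate 2 over replicate 1 was 0.12, stayed between 0.06 and 0.13 with DESeq2 size factors, spike-in scaling, the second quantification or no filter, and was 0.0234 and 0.0237 on deposited TPM with pseudocounts of 1 and 0.1. Genes over 1.2-fold apart numbered 1, and 2 (Opalin and Ermn) with spike-in scaling, either pseudocount or the second quantification. Over all 14717 genes tested, 21.1% were apart with TMM or DESeq2, 22.5% with spike-in scaling and 20.1% in the second quantification. On deposited TPM the share was 22.0% and 27.3% with pseudocounts of 1 and 0.1. Without the filter it was 48.8% of 28379 genes. The Golli share of Mbp TPM was 2.08%, with 1.85% to 2.31% in single libraries, 29.8% by the second quantification and 5.22% by expected counts. Of alternatives chosen after seeing the data, Mbp-208 alone gave 0.0541% and, in the second quantification, 0.0648%. The long share of coding Mag TPM was 25.6% (24.8% to 26.4% in single libraries), 38.8% by the second quantification and 27.5% by expected counts. Over long and short forms only, also chosen after seeing the data, it was 34.0% and 38.8%. The cause of these shifts was not tested, except that the denominators of the last differ by construction. Opalin, the only gene over 1.2-fold apart with TMM, kept its sign in every alternative run. Below that threshold, Mbp, Mobp and Mag changed sign on deposited TPM. Their log2 ratios with a pseudocount of 1 were -0.014, -0.035 and -0.045. No paired analysis was possible because there is 1 group. With 121 and 184 counts, Opalin is the gene whose level depth limits most.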

Other observations

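The order of the middle genes depended on which transcripts were counted, an order not among the comparisons above and looked at after the values were seen. Summed over transcripts labelled protein-coding only, Mag was at 130 and 127 TPM in replicates 1 and 2, Cnp at 93.2 and 91.2, Mobp at 87.8 and 81.7 and Cldn11 at 82.1 and 83.5. On that measure Mag stood above Cnp and Mobp, which lead it in whole-gene TPM, and the ranges of Mobp and Cldn11 met. In the second quantification the coding sums were 145 ± 1.91 TPM for Mag, 142 ± 1.70 for Mobp, 124 ± 1.32 for Cldn11 and 100.4 ± 0.249 for Cnp, where the ranges of Mag and Mobp met and Cnp was the lowest of these 4.

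Transcripts with other labels held 48.1% of Mobp TPM and 41.4% of Cnp TPM in the first quantification, 19.7% of Opalin TPM, 1.95% of Mag TPM and 0.309% of Mbp TPM. Mog, Mal, Cldn11 and Ermn have no such transcript in the annotation. For Mobp the label covers Mobp-204, which carries the 81-residue frame, so its coding sum leaves out RNA with an intact reading frame.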
